A study of Mus musculus with 16 samples.

Results

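Most of the genes described here encode the nuclear part of the mitochondrial respiratory chain and ATP synthase. They were taken as every probe whose gene symbol starts with Nduf, Uqcr, Atp5 or Cox4 to Cox8, which gave 101 probes of 82 genes among 25697 probes and 16593 named genes on the array. By complex there were 52 probes of 39 genes for complex I, 9 probes of 8 genes for complex III, 22 probes of 19 genes for complex IV and 18 probes of 16 genes for complex V. Among these were 9 probes of 6 assembly or supercomplex factor genes. There was also 1 probe of Ndufs5-ps, annotated as a pseudogene of Ndufs5 and counted with complex I. The tissue was murine B cell lymphoma on a C57B6 background, and total RNA was hybridised to Illumina bead arrays. One genotype, called the Wrn tumours here, was Eµ-Myc with the Δhel allele of Wrn on both copies, an allele from which part of the region coding for the helicase of the Werner protein is deleted. The other was Eµ-Myc without that allele. There were 4 tumours of each genotype, and all 8 carried the Eµ-Myc transgene, which drives Myc from an immunoglobulin heavy chain enhancer and so mainly in B lineage cells. The sample titles add a letter, L or E, with no stated meaning: L was given to Wrn tumours 1 and 3 and Eµ-Myc tumours 2 and 4, and E to Wrn tumours 2 and 4 and Eµ-Myc tumours 1 and 3. The labels give no age and do not say whether each tumour came from its own animal, so p-values measure the spread between these samples, which may be partly technical.

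The respiratory chain sits in the inner mitochondrial membrane. Complex I takes electrons from NADH and complex III passes them from ubiquinol to cytochrome c, while complex IV hands them to oxygen. All of them pump protons, and complex V, the ATP synthase, lets the protons back through its membrane part (Fo) to drive ATP synthesis in its catalytic head (F1). Complexes I and IV each have a catalytic core surrounded by small accessory subunits. Most subunits are nuclear genes and a few are encoded in mitochondrial DNA, and of the 13 mitochondrially encoded genes looked for, 0 had a probe here. Several complex IV subunits exist as a widely used form and a form restricted to heart and skeletal muscle or brown fat. Myc is known to raise the expression of many nuclear genes of mitochondrial function.

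A probe was taken as detected when its deposited detection p-value was under 0.01, and it was tested when detected on at least 4 of the 8 arrays. Of the 101 probes, 85 were tested, covering 72 of the 82 genes, and 79 were detected on all 8 arrays. The 10 genes without a tested probe were Ndufab1, Ndufb4, Ndufs1, Uqcrfs1, Uqcrq, Cox4i2, Cox6b2, Cox7b2, Cox8c and Atp5k. Ndufb4 was detected on 3 arrays and the others on none, although Ndufs1, Ndufab1 and the Rieske protein gene Uqcrfs1 belong to every functional chain, so a probe without signal says nothing of its gene. The fit across the array held 11024 probes. Arrays were alike in median signal (49.9 to 52.8 linear units) and in probes detected (10607 to 11369). Of the member probes, 80 were detected in Wrn tumour 1, the lowest number, and 83 to 86 in the other 7 tumours. Of the B cell marker genes 7 of the 8 on the array were detected, the exception being Pax5. The detected Wrn probe lay between 7.03 and 7.48 in Wrn tumours and between 7.56 and 8.45 in Eµ-Myc tumours on the log2 scale, and since its place relative to the deletion is not known here it checks the genotype labels only in part. All values below are log2 of background-corrected, quantile-normalised signal. On this scale the mean over 8 tumours ran from 4.77 to 14.60 among the tested probes, and the signals of different probes were not set against each other, since probes differ in brightness for the same amount of RNA. The median of these means was 11.37 for the tested members and 7.32 for all tested probes. The shares over all probes given below were not limited to probes of like brightness. Precision is limited by the number of arrays.

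Genotype was compared first, to ask whether the subunit genes differed between Wrn and Eµ-Myc tumours. No respiratory chain probe passed the test: 0 of 85 were called at a limma adjusted p under 0.05, where 4 of the 11024 probes on the array were called (0.0363%), and the lowest adjusted p of a member was 0.973. At an unadjusted p under 0.05 there were 2 of 85 members (2.35%), Ndufb10 and Cox7a1, against 3.76% of all probes. For 0 of 85 members did the values of the genotypes stand apart without overlap, against 2.21% of all probes. What most of the members shared was a small difference of the same sign. The mean of the Wrn tumours was below that of the Eµ-Myc tumours for 72 of 85 (84.7%), against 49.0% of all probes, with a median log2 difference of -0.18 for the members and 0.0068 for all probes. The list was chosen with this tendency known, and it carries no test of its own. Markers of other cells also leaned by genotype: 12 of 12 macrophage and monocyte probes were below 0 (median -0.48), as were 3 of 3 erythroid (-0.77), 3 of 4 T cell (-0.30) and 2 of 2 adipocyte probes (-0.56), against 1 of 10 B cell (0.21), 1 of 5 endothelial (0.098), 2 of 6 fibroblast (0.052) and 1 of 2 muscle probes (-0.16). None of these marker probes was called, and their part in the members' difference was not tested.

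A single tumour set much of that tendency. Without Wrn tumour 1 the members' median difference was -0.081 and 55 of 85 lay below 0 (64.7%), against 49.9% of all probes. By complex, the median difference was -0.22 with 41 of 45 probes below 0 for complex I, -0.20 with 5 of 7 for complex III, -0.15 with 14 of 17 for complex IV and -0.078 with 12 of 16 for complex V. Without Wrn tumour 1 these became -0.095 with 33 below 0, 0.0034 with 3, -0.014 with 10 and -0.073 with 9. In a bulk sample fewer cells of a type cannot be told apart from less RNA per cell.

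**Figure D1:**
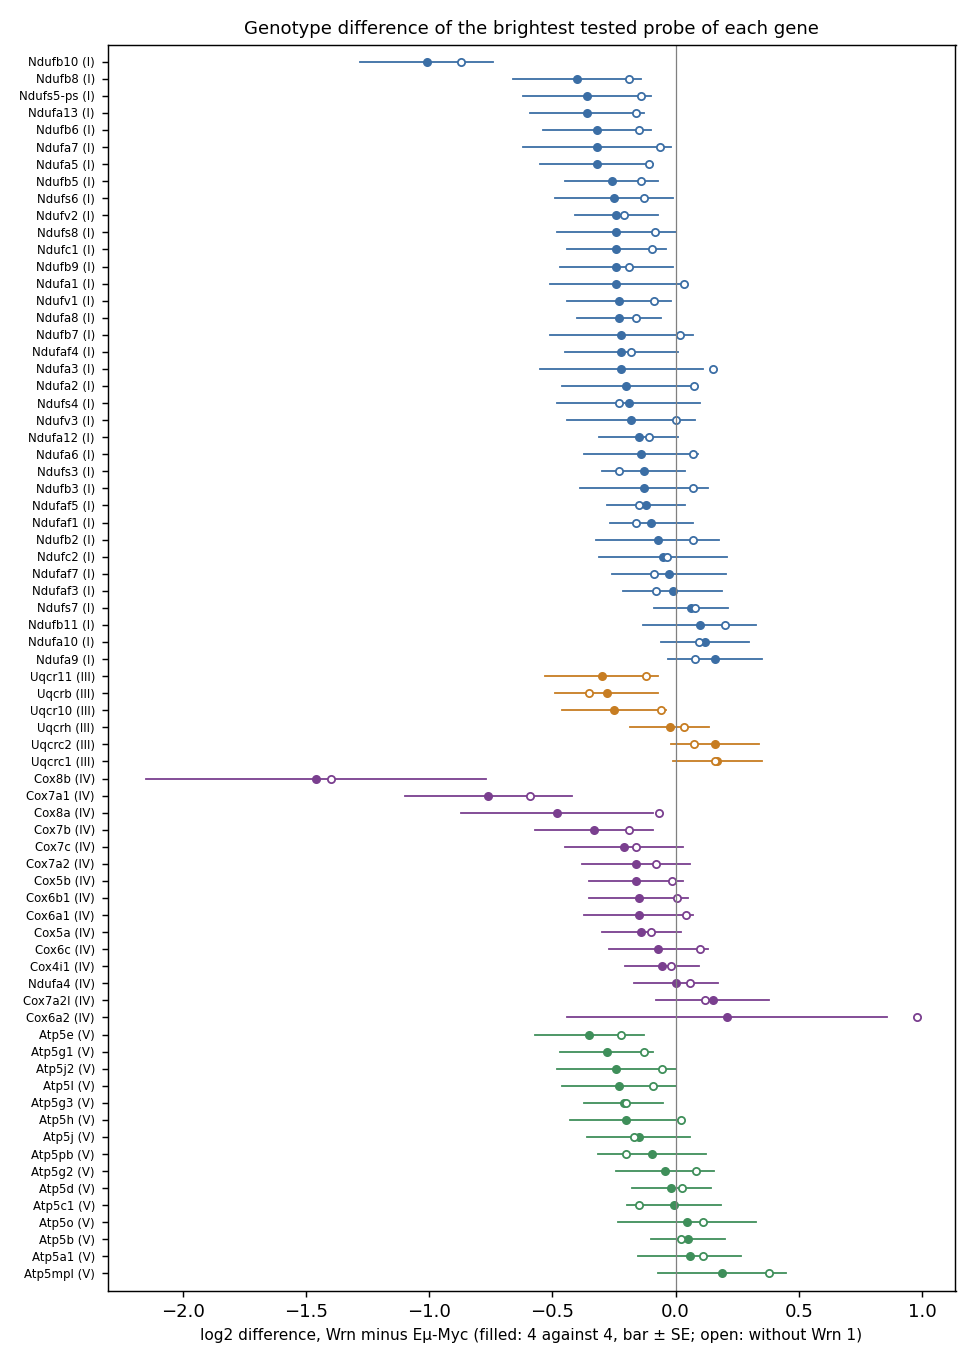
Log2 difference (Wrn minus Eµ-Myc, x axis) of the brightest tested probe of each of the 72 genes, one gene a line with its complex in brackets. Filled points with bars are the difference ± SE of 4 against 4 tumours, and open points leave out Wrn tumour 1; most filled points lie left of 0, and Ndufb10, Cox7a1 and Cox8b lie furthest left.

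In complex I, Ndufb10, an accessory subunit of the membrane arm, gave the lowest p of all members. Its signal was 5.61, 5.99, 6.53 and 6.0 in the Wrn tumours, listed here and below from replicate 1 to 4, and 7.08, 7.26, 7.44 and 6.38 in the Eµ-Myc tumours. Wrn tumour 3 lay above Eµ-Myc tumour 4, and otherwise every Wrn tumour was below every Eµ-Myc tumour. The means were 6.03 ± 0.38 in Wrn and 7.04 ± 0.47 in Eµ-Myc tumours (SD, n = 4 each), a difference of -1.01 ± 0.27 (SE; limma unadjusted p = 0.0033, adjusted p = 0.973). The difference was -0.87 without Wrn tumour 1, and between -1.23 and -0.87 whichever tumour was left out.

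The next accessory subunits in order of p were Ndufb6 and Ndufa13, both of the membrane arm. The dimmer of the Ndufb6 probes differed by -0.36 ± 0.20 (SE), with 6.17, 6.87, 6.85 and 6.44 in Wrn tumours and 7.01, 6.76, 6.95 and 7.03 in Eµ-Myc tumours. The brighter one differed by -0.32. Ndufa13, which is also known as GRIM-19, a binding partner of STAT3, had 11.82, 12.75, 12.64 and 12.40 in Wrn tumours and 12.82, 13.02, 12.63 and 12.58 in Eµ-Myc tumours, a difference of -0.36 ± 0.23 (SE). In both genes Wrn tumour 1 was the lowest of all 8 and the groups overlapped. Without it the differences were -0.22 for the dimmer and -0.15 for the brighter Ndufb6 probe, and -0.16 for Ndufa13.

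The probes of the catalytic core of complex I had a median difference of -0.23, against -0.22 for its accessory subunits. Without Wrn tumour 1 these medians were -0.088 and -0.095. Ndufv1, which binds NADH and the flavin, differed by -0.23 ± 0.21 (SE), its iron-sulfur neighbour Ndufv2 by -0.24 ± 0.17 and the iron-sulfur subunit Ndufs8 by -0.24 ± 0.24. Without Wrn tumour 1 the difference was -0.088 for Ndufv1 and -0.083 for Ndufs8, but -0.21 for Ndufv2. Ndufs7, which carries the last iron-sulfur cluster before ubiquinone, lay between 11.58 and 11.67 in the Wrn tumours and between 11.50 and 11.68 in the Eµ-Myc tumours. The 3 complex I probes with the lowest p among those higher in Wrn were accessory: Ndufa9 at 0.16 ± 0.19, Ndufa10 at 0.12 ± 0.18 and Ndufb11 at 0.098 ± 0.23. The Ndufb11 probe was dim, at 4.47 to 5.21, and was detected on 2 Wrn and 2 Eµ-Myc arrays. Its other probe was detected on no array. The 5 tested assembly factors, which build the complex without staying in it, differed by between -0.22 (Ndufaf4) and -0.012 (Ndufaf3).

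In complex III none of the 6 tested genes passed the test. The processing-peptidase-like core proteins Uqcrc1 and Uqcrc2 differed by 0.17 ± 0.18 and 0.16 ± 0.18 (SE). Among the small subunits Uqcr11 differed by -0.30 ± 0.23, Uqcrb by -0.28 ± 0.21, the brighter Uqcr10 probe by -0.25 ± 0.21 and Uqcrh by -0.024 ± 0.16. Without Wrn tumour 1 these were 0.16 for Uqcrc1, 0.075 for Uqcrc2, -0.12 for Uqcr11, -0.35 for Uqcrb, -0.060 for Uqcr10 and 0.033 for Uqcrh. Uqcr11 had 12.01, 12.92, 12.53 and 12.75 in Wrn tumours and 12.80, 12.76, 12.63 and 13.21 in Eµ-Myc tumours, so that Wrn tumour 1 lay below the rest and the other Wrn tumours within or close to the Eµ-Myc range. Uqcrb had 8.0, 7.84, 7.90 and 7.36 in Wrn tumours and 7.70, 8.11, 8.36 and 8.04 in Eµ-Myc tumours, and its low value was in Wrn tumour 4.

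In complex IV the largest differences were in the tissue-restricted forms Cox8b and Cox7a1, described with their partners below. Of the widely used subunits, Cox8a differed by -0.48 ± 0.39 (SE) with 10.59, 11.97, 12.18 and 12.60 in Wrn tumours and 11.70, 12.29, 12.65 and 12.63 in Eµ-Myc tumours. Without Wrn tumour 1 its difference was -0.068. Cox7b differed by -0.33 ± 0.24 (-0.19 without that tumour), with 4.67 in Wrn tumour 1, where it was not detected, and 4.80 to 5.65 in the other 7 tumours. Cox4i1, the ubiquitous form of the largest nuclear subunit, hardly varied, at 12.44 to 12.61 in Wrn tumours and 12.56 to 12.63 in Eµ-Myc tumours. Cox7a2l, a factor in the joining of complexes III and IV into supercomplexes, differed by 0.15 ± 0.23. Ndufa4, named for complex I but a subunit of complex IV, averaged 12.80 ± 0.14 in Wrn and 12.80 ± 0.20 in Eµ-Myc tumours (SD, n = 4 each).

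In complex V the members of the F1 head were near 0 except Atp5e, its epsilon subunit. Atp5e had 5.37, 5.60, 6.0 and 6.10 in Wrn tumours and 5.87, 5.95, 6.17 and 6.47 in Eµ-Myc tumours, a difference of -0.35 ± 0.22 (SE). The catalytic beta subunit Atp5b lay between 14.51 and 14.72 in Wrn tumours and between 14.49 and 14.70 in Eµ-Myc tumours, a difference of 0.052 ± 0.15, and the alpha subunit Atp5a1 differed by 0.057 ± 0.21. The proton-carrying c ring of Fo is encoded by 3 genes for 1 mature protein: Atp5g1 differed by -0.28 ± 0.19, Atp5g3 by -0.21 ± 0.16 and Atp5g2 by -0.044 ± 0.20. Without Wrn tumour 1 these became -0.13, -0.20 and 0.083, and that of Atp5e -0.22. Atp5g3 had 13.95, 13.87, 14.09 and 14.12 in Wrn tumours and 14.24, 14.20, 14.09 and 14.37 in Eµ-Myc tumours. Atp5mpl, a small protein bound to the membrane part, was higher in Wrn by 0.19 ± 0.26, with its lowest value, 12.02, in Eµ-Myc tumour 2.

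Of the 10 genes with several tested probes, every one had all its probes on the same side of 0 by genotype. The widest gap was 0.24, between probes of Ndufv3 at -0.071 and -0.32, and the 4 probes of Ndufs4 lay between -0.32 and -0.16.

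Wrn tumour 1 was described on its own after these values were seen, and no test was run on it. It was the lowest of the 8 tumours for 51 of 85 member probes (60.0%), against 13.5% of all probes, which were dimmer in the median. The median deviation of the members from their mean over the 8 tumours was -0.47 there, against 0.029 for all probes in the same tumour. In the other Wrn tumours it was 0.056 (tumour 2), 0.16 (tumour 3) and -0.12 (tumour 4), and from Eµ-Myc tumour 1 to tumour 4 it was 0.046, 0.087, 0.030 and 0.10. By complex, Wrn tumour 1 was lowest for 27 of 45 probes of complex I, 4 of 7 of complex III, 13 of 17 of complex IV and 7 of 16 of complex V.

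**Figure D2:**
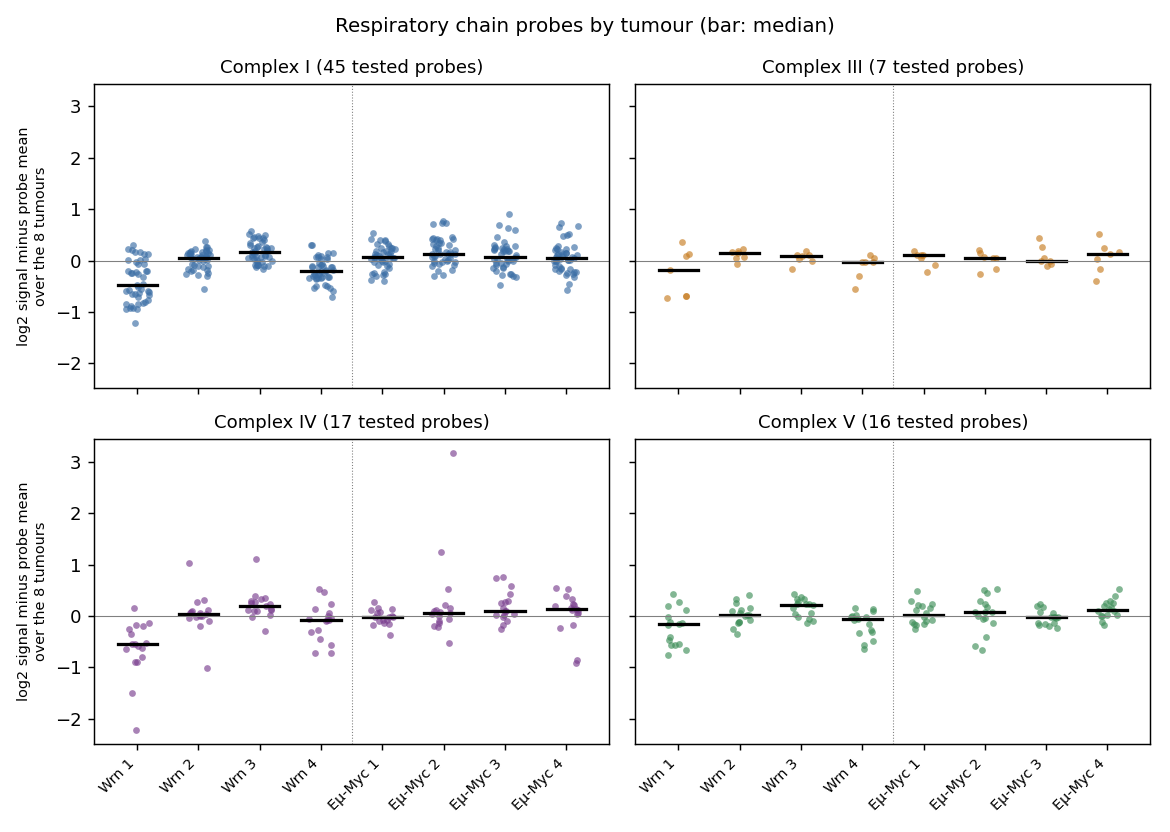
Each point is a tested probe, placed by its log2 signal minus its own mean over the 8 tumours (y axis) in each tumour (x axis, Wrn left of Eµ-Myc), in a panel for each complex, and the bar is the median. Wrn tumour 1 has the lowest bar in every panel, at -0.48 for complex I, -0.18 for III, -0.54 for IV and -0.16 for V; the high point of complex IV in Eµ-Myc tumour 2 is Cox8b.

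By kind of subunit, which was not tested, Wrn tumour 1 was lowest for 24 of 34 accessory complex I probes, 2 of 5 core complex I probes and 0 of 5 assembly factor probes, and for 13 of 16 probes of complex IV subunits. It was also lowest for the 1 pseudogene probe, Ndufs5-ps. For complex V it was lowest for 5 of 11 Fo probes and 2 of 5 F1 probes. Among accessory complex I subunits Ndufa3 had 10.21 in Wrn tumour 1 and 11.31 to 11.90 in the other 7, and Ndufa1 had 10.72 against 11.62 to 12.07. Other members went the other way. The complex I accessory subunit Ndufa9 was at its highest in Wrn tumour 1 (12.20, against 11.59 to 12.16 in the others), as were the core subunit Ndufs3 (10.61, level with Eµ-Myc tumour 4), Uqcrc2 (12.49, against 11.84 to 12.30) and the gamma subunit of F1, Atp5c1 (13.34, against 12.76 to 13.09). Low values in this tumour were thus not shared by every probe of the chain.

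Array-wide values of Wrn tumour 1 stood as follows. Its median signal, 49.9, was the lowest of the 8, with Wrn tumour 3 next, while its 10919 detected probes lay inside the range of the others. The summed signal of the B cell markers was 20200 linear units in Wrn tumour 1, within the 13700 to 21600 of the Wrn tumours, and 12700 to 16500 in the Eµ-Myc tumours. The sum over macrophage and monocyte markers, of which all 10 genes on the array were detected, was 8010 in Wrn tumour 1, in a range of 5990 to 10600 for Wrn and 8590 to 12900 for Eµ-Myc tumours. The part of these in the members' values was not tested.

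The complex IV subunits that come in tissue forms were read for which forms were detected. Of the widely used forms Cox4i1, Cox6a1, Cox6b1, Cox7a2 and Cox8a were detected on all 8 arrays and Cox7b on 7. Of the restricted forms Cox4i2 (lung), Cox6b2, Cox7b2 and Cox8c (testis) were detected on no array. Of the forms known from heart, skeletal muscle and brown fat, Cox7a1 was detected on all 8 arrays, Cox6a2 on 3 of 4 Wrn and 4 of 4 Eµ-Myc arrays, and Cox8b on 1 of 4 Wrn and 3 of 4 Eµ-Myc arrays. Cox8b and Cox7a1 were both highest in Eµ-Myc tumour 2, and Cox6a2 was not.

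Cox8b, the muscle and brown fat form of subunit VIII, had 4.41, 4.30, 5.01 and 4.58 in the Wrn tumours, against 5.23, 8.47, 6.04 and 4.38 in the Eµ-Myc tumours. Eµ-Myc tumour 2 stood far above the rest and Eµ-Myc tumour 4 lay among the Wrn tumours. The means were 4.57 ± 0.31 in Wrn and 6.03 ± 1.76 in Eµ-Myc tumours (SD, n = 4 each), a difference of -1.46 ± 0.69 (SE; limma adjusted p = 0.973) that was -0.65 without Eµ-Myc tumour 2. Cox7a1, the matching form of subunit VIIa, had 5.94, 6.63, 7.12 and 6.12 in Wrn tumours and 6.69, 8.07, 6.94 and 7.16 in Eµ-Myc tumours. It too was highest in Eµ-Myc tumour 2, with a difference of -0.76 ± 0.34 (SE; limma unadjusted p = 0.0447, adjusted p = 0.973) that was -0.48 without that tumour.

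Cox6a2, the heart and skeletal muscle form of subunit VIa, had another pattern, with 4.70, 7.95, 8.02 and 7.38 in Wrn tumours and 6.83, 6.69, 7.66 and 6.06 in Eµ-Myc tumours. It was not detected in Wrn tumour 1 and was highest in Wrn tumours 2 and 3. The difference was 0.21 ± 0.65 (SE), and 0.98 without Wrn tumour 1. Its ubiquitous partner Cox6a1 was also lowest in Wrn tumour 1, but at 12.39 against 12.84 to 13.32 in the others.

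Markers of fat and muscle were read beside these forms. Cidea, a lipid droplet protein of brown fat, had 4.45, 4.46, 4.71 and 4.24 in Wrn tumours, where it was not detected, and 5.74, 8.0, 5.80 and 4.34 in Eµ-Myc tumours. Ucp1, the proton leak protein that marks brown fat, was detected only in Eµ-Myc tumour 2, at 6.06. Heart muscle Actc1 was 7.15 and Myh6 was 6.29 in that tumour, and neither was detected in a Wrn tumour. A second probe of each gene was detected on no array (4.40 for Actc1 and 4.15 for Myh6 in Eµ-Myc tumour 2). Both Cox8b and Cidea were detected in Eµ-Myc tumours 1, 2 and 3, and Cox8b also in Wrn tumour 3. Over the whole lists, 4 of 6 adipocyte genes were detected on at least 1 array, with Fabp4 and Plin1 on none, and their summed signal was 558 to 1090 in Wrn and 661 to 1870 in Eµ-Myc tumours, highest in Eµ-Myc tumour 2. Unlike Cidea and Ucp1, Adipoq and Lpl were detected on every array. Adipoq had 7.53, 5.38, 6.72 and 5.87 in Wrn tumours and 6.48, 8.73, 7.82 and 5.05 in Eµ-Myc tumours. Lpl had 9.44, 9.92, 8.52 and 8.89 in Wrn tumours and 9.64, 10.08, 9.88 and 9.11 in Eµ-Myc tumours. Of the muscle genes 6 of 10 were detected on at least 1 array, with Ckm, Myh1, Myh4 and Tnni3 on none. The sum over the muscle list was 617 to 920 in Wrn, highest in Wrn tumour 4, and 595 to 862 in Eµ-Myc tumours. Besides Actc1 and Myh6, Mb was highest in Eµ-Myc tumour 2 (6.73 by its brighter probe). Acta1, Tnni2 and Tnnt3 were highest in Wrn tumour 4, at 6.45, 9.15 and 5.18, against 4.54, 8.32 and 4.99 in Eµ-Myc tumour 2. Besides the adipocyte sum, Eµ-Myc tumour 2 had the highest sums of T cell markers (1190) and erythroid markers (25900), where the other 7 tumours had 361 to 1110 and 1520 to 16100. Its macrophage and monocyte sum was also the highest, at 12900, against 5990 to 11200 in the other 7. Of the T cell markers Cd3d, Cd3e, Cd3g and Cd5 were highest in Eµ-Myc tumour 2. Cd2 and Thy1 were highest in Wrn tumour 4 (9.49 and 7.98, against 8.67 and 7.97 in Eµ-Myc tumour 2). The part of such cells in the levels of Cox8b and Cox7a1 was not tested.

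**Figure D3:**
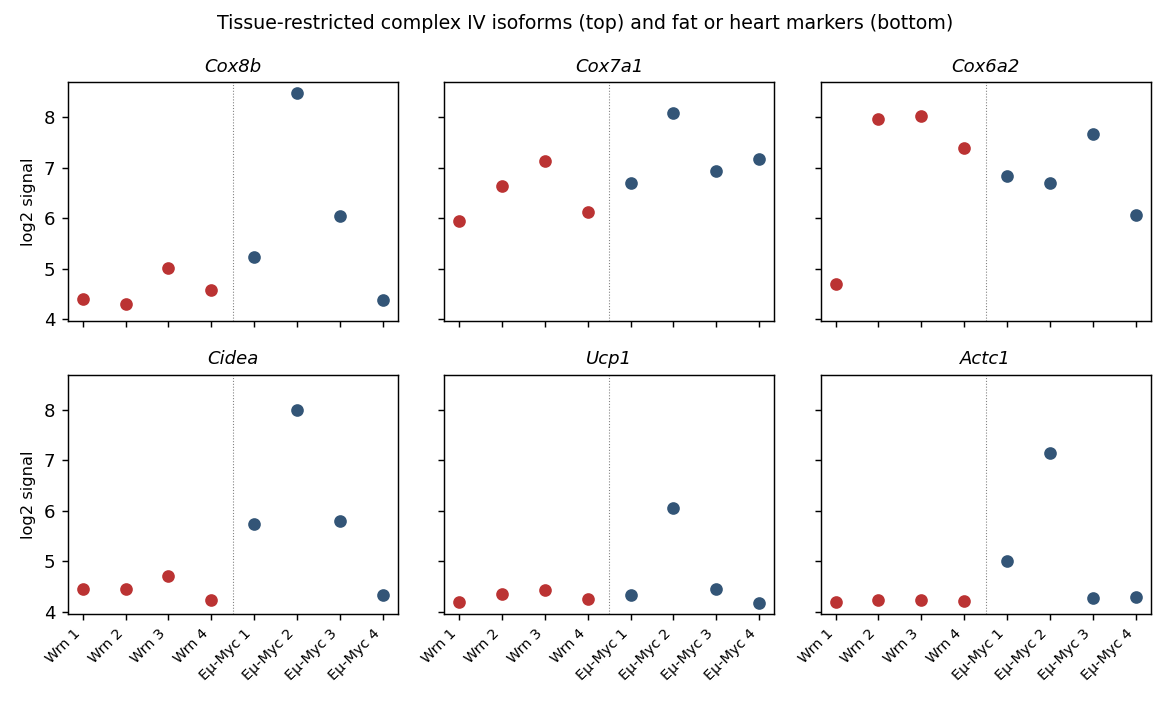
Log2 signal (y axis) in each tumour (x axis, 4 Wrn tumours left of 4 Eµ-Myc tumours) of 3 complex IV forms known from muscle or brown fat (top) and of the fat markers Cidea and Ucp1 and the heart muscle gene Actc1 (bottom). Eµ-Myc tumour 2 is the highest point for Cox8b (8.47), Cox7a1 (8.07), Cidea (8.0), Ucp1 (6.06) and Actc1 (7.15), and not for Cox6a2.

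Promoter sequences were read because the accessory subunits had low values in the same tumour while the restricted forms did not share one pattern. RefSeq promoter windows, 250 bases before to 50 bases after the gene start on GRCm38.p6, were given for 68 of the 82 genes (73 windows, 5 genes having more than 1). They were searched on both strands for the letters GCATGCGC (the core of the site of NRF1, a known regulator of respiratory genes), CCGGAAG (a core bound by ETS factors such as GABPA, or NRF-2), AAGATGG (YY1), CACGTG (the E-box, bound by Myc with Max among others) and TATAAA (the TATA box). None of these motifs is contained in another. The windows of a ubiquitous and a restricted form of one subunit, Cox8a and Cox8b, are shown first, then Cox7a1, then Cox6a1, which holds the NRF1 and ETS letters, and Ndufb10, which had the lowest p by genotype. All run 5′ to 3′ along the gene, and capitals mark the motifs found.
Cox8a, chr19:7217567-7217866, minus strand: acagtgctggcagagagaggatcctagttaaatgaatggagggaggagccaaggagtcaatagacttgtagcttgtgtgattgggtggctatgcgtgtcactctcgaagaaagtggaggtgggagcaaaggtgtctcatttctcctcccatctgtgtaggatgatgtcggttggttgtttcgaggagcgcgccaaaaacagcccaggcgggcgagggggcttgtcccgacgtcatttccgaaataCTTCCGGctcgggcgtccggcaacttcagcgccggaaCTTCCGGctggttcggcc
Cox8b, chr7:140900397-140900696, minus strand: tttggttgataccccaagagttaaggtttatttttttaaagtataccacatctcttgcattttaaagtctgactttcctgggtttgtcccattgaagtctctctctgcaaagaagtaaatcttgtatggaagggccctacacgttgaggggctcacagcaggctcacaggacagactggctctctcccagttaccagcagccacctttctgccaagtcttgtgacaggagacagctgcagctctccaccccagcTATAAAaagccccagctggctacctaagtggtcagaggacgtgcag
Cox7a1, chr7:30183921-30184220, plus strand: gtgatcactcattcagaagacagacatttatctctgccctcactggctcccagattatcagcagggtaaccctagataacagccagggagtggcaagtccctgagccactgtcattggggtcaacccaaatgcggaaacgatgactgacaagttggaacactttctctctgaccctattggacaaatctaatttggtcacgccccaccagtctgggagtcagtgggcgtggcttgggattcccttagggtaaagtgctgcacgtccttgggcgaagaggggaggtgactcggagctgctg
Cox6a1, chr5:115348909-115349208, minus strand: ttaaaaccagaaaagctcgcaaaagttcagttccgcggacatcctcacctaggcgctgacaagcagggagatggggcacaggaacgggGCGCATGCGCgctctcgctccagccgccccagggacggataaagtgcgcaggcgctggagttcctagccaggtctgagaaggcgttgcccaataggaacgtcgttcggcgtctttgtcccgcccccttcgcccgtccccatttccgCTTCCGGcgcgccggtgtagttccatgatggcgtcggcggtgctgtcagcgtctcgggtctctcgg
Ndufb10, chr17:24724374-24724673, minus strand: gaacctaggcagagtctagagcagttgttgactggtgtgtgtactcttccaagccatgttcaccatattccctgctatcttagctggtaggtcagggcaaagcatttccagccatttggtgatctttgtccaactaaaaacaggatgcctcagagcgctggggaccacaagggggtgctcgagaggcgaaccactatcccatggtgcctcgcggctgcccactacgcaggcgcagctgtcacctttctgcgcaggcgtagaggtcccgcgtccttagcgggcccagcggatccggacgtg
The Cox8a window held the ETS letters at 2 places and Cox8b held a TATA box. Cox6a1 held the NRF1 letters at 2 overlapping places, on opposite strands, and the ETS letters at 1. In the windows of Cox7a1 and Ndufb10 none of the letters searched for was present.

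Over all member windows the NRF1 letters were in 10 of 73 (13.7%), against 2.71% of 32851 windows of all genes. The ETS letters were in 20.5% of member windows against 8.86% of all, the YY1 letters in 15.1% against 6.34%, the E-box in 9.59% against 7.15% and the TATA box in 8 of 73 against 13.6%. The windows of all genes were not limited to genes detected in these tumours, and detected genes alone were not compared. Genes were then split by whether their brightest tested probe was lowest in Wrn tumour 1 (38 genes with a window) or in another tumour (24 genes). The ETS letters were in 11 of the 38 genes and 3 of the 24, the NRF1 letters in 6 and 3, the YY1 letters in 5 and 6, and the E-box in 4 and 2. A match describes the letters of the window and was not tested as a binding site.

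The second comparison set L against E tumours, with genotype in the model. By letter 0 of 85 members were called (limma adjusted p), where 2 of 11024 probes were (0.0181%), and 1 of 85 had an unadjusted p under 0.05 (1.18%), against 7.44% of all probes. The median difference, L minus E, was -0.011, and 45 of 85 were below 0 (52.9%), against 48.3% of all probes. In 0 of 85 did the letters stand apart without overlap, against 5.01% of all probes. When a tumour was left out the median by letter ran from -0.16 (without Wrn tumour 3) to 0.10 (without Wrn tumour 1).

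The member under 0.05 was Ndufc2, an accessory subunit of the membrane arm of complex I. It had 11.71 and 12.14 in the L tumours Wrn 1 and 3 and 12.13 and 12.27 in the L tumours Eµ-Myc 2 and 4, against 11.89 and 11.29 in the E tumours Wrn 2 and 4 and 11.51 and 11.31 in the E tumours Eµ-Myc 1 and 3. The E tumour Wrn 2 lay above the L tumour Wrn 1, and the difference was 0.56 (limma adjusted p = 0.604). In complex V the Fo stalk subunits Atp5pb and Atp5j differed by 0.39 and 0.35, and a second Atp5j probe by 0.37. Among the other members with the lowest p by letter, Cox7a1 differed by 0.48, Cox7a2 by 0.27, Uqcrb by 0.20 and Uqcrc2 by 0.16, while a probe of Ndufa8 differed by -0.26, the dimmer Uqcr10 probe by -0.24, Cox6a1 by -0.23, Atp5g1 by -0.19, Uqcrc1 by -0.17 and Atp5d by -0.16. Several of these moved when 1 tumour was left out: without Wrn tumour 1 the Uqcr10 probe differed by -0.036, Cox6a1 by -0.051 and Atp5g1 by -0.058, without Wrn tumour 4 Uqcrb differed by 0.070 and Uqcrc2 by 0.041, without Eµ-Myc tumour 2 Cox7a1 differed by 0.23, and without Eµ-Myc tumour 3 Uqcrc1 differed by -0.072. Of the Ndufv3 probes, those with means of 11.37 and 10.70 differed by -0.36 and -0.46, and the dim one, with a mean of 5.44, by 0.30. The difference of -0.46 was -0.26 without Wrn tumour 1. Cox6a2 had the largest letter difference in size, -1.09 (limma adjusted p = 0.739), which was -0.38 without Wrn tumour 1.

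**Figure D4:**
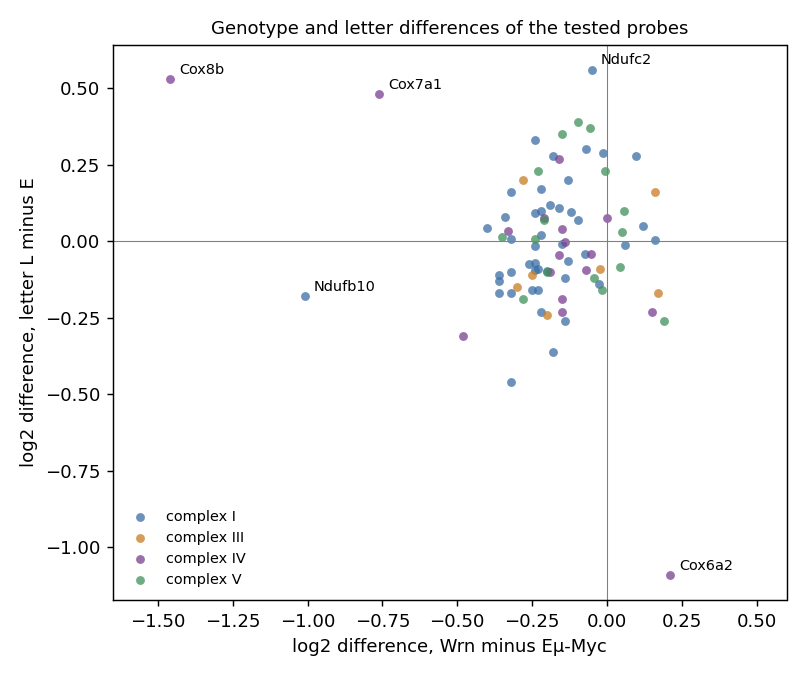
Each point is one of the 85 tested probes, coloured by complex, with its log2 difference by genotype (Wrn minus Eµ-Myc, x axis) and by letter (L minus E, y axis). The cloud lies left of 0 on the x axis and around 0 on the y axis, and named genes lie beyond 0.6 by genotype or 0.5 by letter.

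The letter difference was also compared between the genotypes, as L minus E in Wrn tumours less L minus E in Eµ-Myc tumours. Each cell of this design held 2 tumours, and the contrast is the same as replicates 1 and 3 against 2 and 4. No probe of the array was called by limma (0 of 11024, 0.0%), and 0 of 85 members against 5.03% of all probes had an unadjusted p under 0.05. The contrast was below 0 for 51 of 85 members (60.0%), against 47.8% of all probes, and for 15 of 17 complex IV probes. Wrn tumour 1, an L tumour, held the lowest value for 13 of those 17 probes, and the count without it was not taken. The members with the lowest p were Ndufb8 (-0.98), Uqcr11 (-0.83), Ndufaf7 (0.82) and Uqcrc1 (0.59), each with a limma adjusted p of 0.937. Ndufb8, an accessory subunit of the membrane arm, had 11.19 and 12.04 in the L tumours of Wrn against 11.93 and 12.18 in its E tumours, and 12.45 and 12.56 in the L tumours of Eµ-Myc against 11.78 and 12.17 in its E tumours. Wrn tumour 1 again held the lowest of these values.

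Other genes of the same machinery were read from lists. Complex II, which feeds electrons from succinate, had 4 tested probes of 3 genes, all below 0 by genotype with a median of -0.098, and Wrn tumour 1 was lowest for 0 of the 4. Sdhd differed by -0.26 ± 0.23 and the brighter Sdhb probe by -0.13 ± 0.22 (SE). The electron carrier gene Cycs and cytochrome c1 (Cyc1) differed by 0.078 and 0.0074. Of 16 tested probes for assembly of complexes I and III, 7 were below 0, and of 21 for assembly of complex IV, 15 were. Among them the brighter Ttc19 probe differed by 0.32 ± 0.16 and the dimmer by -0.096. Probes of Foxred1 ran from -0.099 to 0.32 ± 0.19, and the brightest differed by 0.005. Coa7 differed by 0.53 ± 0.23 and Cox10, which makes heme for complex IV, by -0.42 ± 0.21. Complex V assembly and its inhibitor had 4 tested probes, 3 below 0, with the dimmer Atpaf2 probe at -0.35 ± 0.24 and the brighter at -0.18.

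Mitochondrial transcription and biogenesis genes had 18 tested probes, 10 below 0, with a median of -0.054, and Wrn tumour 1 was lowest for 3 of them (16.7%). The mitochondrial DNA polymerase gene Polg differed by 0.20 ± 0.18 and a probe of Mterf1a, a mitochondrial transcription terminator, by -0.46 ± 0.45 (SE). Mitochondrial ribosomal protein genes had 93 tested probes, 64 below 0, with a median of -0.12 that was -0.10 without Wrn tumour 1, and Wrn tumour 1 was lowest for 31 (33.3%). The ones with the lowest p were Mrpl55 at -0.85 ± 0.25 (SE; limma adjusted p = 0.973) and Mrps18b at -0.45 ± 0.19. None of the probes on these lists was called by genotype, by letter or for the interaction. At an unadjusted p under 0.05 by genotype there were 4 of the 93 ribosomal and 1 of the 21 complex IV assembly probes, and 0 in each of the other lists with tested probes, where 3.76% of all probes had such a p.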

How the data were processed

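Illumina bead array values of 8 tumours were used. Each tumour was deposited under 2 processings, titled Illumina GUI and Bioconductor lumi, and was counted once. The deposited non-normalised table holds bead intensity, not logged, and detection p-values, per the file headers. The deposited lumi table was read as intensity on a linear scale after background subtraction, from its values, and the deposited GUI table as a score: for lumi values above 1000, its square root and their log2 lay within 0.0102 of each other. Software settings behind both were not given in the sources used here. RNA was extracted with Trizol and RNeasy columns, per the labels' protocols.

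The non-normalised and processed tables were joined by each probe's ranks on the 8 arrays, and all 25697 probes joined one to one. Symbols came from the platform annotation (23978 probes with 1 symbol, 0 with several, 1719 with none), updated through the RefSeq gene table. Intensities were corrected and normalised with neqc of limma 3.58.1 (negative controls inferred from detection p-values, offset 16, quantile, log2), so differences of dim probes are understated. Genotype was tested with lmFit and eBayes, two-sided, with Benjamini-Hochberg adjustment over 11024 probes. Letter was tested in a model that also held genotype, and the interaction in a further model. The fit was tested on simulated data. Medians and counts over members carry no test. Python 3.11.15, pandas 2.3.3 and matplotlib 3.10.9 were used for the rest.

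The members, the other gene lists and the naming rule were chosen with earlier results of these data known. Named were, in each complex, the 3 lowest p higher and lower by genotype and the 2 lowest by letter, the 4 lowest p of the interaction, the tissue isoforms, and the 2 lowest p in each other list. Core subunits, assembly factors and examples for Wrn tumour 1 were named after their values were seen. Alternatives were the offset, the deposited values, median scaling, cyclic loess, the detection filter, array weights, the replicate block, 1 probe a gene, structural subunits alone and leaving out each tumour.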

Additional observations from a re-analysis of the deposited data

Results flagged for a closer look

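In 92 groups of 4 tumours tested for a value far from the others (each named member probe in each genotype), 1 was flagged, where chance gives about 1 in 20 groups. Atp5g1, a gene of the ATP synthase c ring, was 12.07 in Eµ-Myc tumour 2 and 12.30 to 12.31 in the other Eµ-Myc tumours. All 4 lay close together, and the gap was large only beside their narrow range. Cox4i2, a named probe detected on no array, is not in that count although it had a like gap. It was 4.67 in Wrn tumour 1 and 4.35 to 4.36 in the other Wrn tumours.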

How the results depend on the processing

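Member calls were 0 under every alternative run for genotype, letter and the interaction. The members' median genotype difference stayed below 0 in all 21 alternatives, between -0.26 and -0.081 (nearest to 0 without Wrn tumour 1). Between 55 and 79 probes were below 0, the highest count being without a filter, where all 101 member probes were counted. Wrn tumour 1 was lowest for 43 to 55, the lowest count with 1 probe a gene, where 72 probes were counted. The members' median by letter lay between -0.16 (without Wrn tumour 3) and 0.10 (without Wrn tumour 1), so it has no settled sign. For complex III the genotype median was -0.024 without a filter and -0.30 to 0.0034 when a tumour was left out, and its letter median -0.17 to 0.041. Over all probes, genotype calls numbered 4, but 1 when detected on all 8 arrays, 1 without a filter, 2 with array weights, 2 with the replicate block and 1 to 6 when a tumour was left out. Letter calls numbered 2, but 0 with an offset of 50, 0 with the lumi or GUI values, 1 with median scaling, 0 when detected on all 8 arrays, 0 without a filter and 0 to 8 when a tumour was left out. Replicate numbers did not pair the tumours: same-numbered tumours correlated at -0.0037, -0.175, -0.214 and -0.186 in their deviations, none best with its own number, and the replicate block left the members' median at -0.18. Small genotype differences changed sign: Atp5b was -0.0040 with median scaling, Ndufa4 -0.094 with median scaling and -0.026 with cyclic loess, and Cox6a2 -0.0037 with the GUI values. When a tumour was left out Atp5a1 ran from -0.068 to 0.20, Atp5g2 from -0.12 to 0.083 and Atp5mpl from -0.0042 to 0.38. The brighter Cox6a1 probe then ran from -0.24 to 0.043, the dimmer from -0.27 to 0.085 and Cox6a2 from -0.13 to 0.98. The brighter Cox6b1 probe ran from -0.28 to 0.0076, while the dimmer kept its sign, at -0.29 to -0.0071. Cox7a2l ran from -0.0020 to 0.31, Ndufa4 from -0.081 to 0.077 and Ndufb11 from -0.033 to 0.21. For dim probes the scale set the size: Cox8b differed by -2.81 in the lumi values and by -1.46 after neqc. Apart from the changes whose setting leaves out tumours or probes, the cause was not tested.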

Other observations

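Some regulators of mitochondrial genes varied between single tumours rather than by genotype, and were picked out after their values were seen. Esrra, the nuclear receptor ERR alpha, which drives respiratory genes in muscle and other tissues, was 6.44 in Wrn tumour 1 and 7.49, 7.78 and 8.01 in Wrn tumours 2 to 4, against 7.12, 7.58, 8.37 and 6.96 in the Eµ-Myc tumours. Tfam, which packages and transcribes mitochondrial DNA, was highest in Wrn tumour 1 by its brighter probe, at 9.66, with 8.80 to 9.05 in the other Wrn tumours and 8.62 to 9.37 in Eµ-Myc tumours. Tfb1m, a methyltransferase of the mitochondrial ribosome, was 4.16, 6.46, 6.56 and 4.18 in Wrn tumours and 4.12, 4.21, 6.30 and 5.79 in Eµ-Myc tumours, with both low and high values in each genotype. The 3 probes of Mterf1a, a mitochondrial transcription terminator, were 10.44, 11.40 and 11.22 in Eµ-Myc tumour 2, and their highest values in the other 7 tumours were 8.77, 9.74 and 9.70. None of these probes passed the limma test by genotype (adjusted p of 0.973 to 0.987).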
